A study of Mus musculus with 17 samples.

Results

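The 38 genes described here encode proteins of the DNA repair pathways other than homologous recombination: mismatch repair, nucleotide excision repair, base excision and single-strand break repair, direct reversal of alkylated bases, and non-homologous end joining. They were chosen by name, and each was represented by the probe set of highest mean among those annotated to that gene alone. A probe set is a group of short oligonucleotides on the array that report 1 transcript. Values were obtained for 36 of the 38 genes, of 18193 genes measured in all. Tdg, a thymine DNA glycosylase, had 3 probe sets that were all shared with other genes, and Dclre1c, which encodes the Artemis nuclease, had none, so neither was given a level.

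The samples were 17 primary abdominal tumors from hemizygous TH-MYCN mice kept on a single inbred background, with 1 Affymetrix whole-genome mouse expression array for each. In this neuroblastoma model a rat tyrosine hydroxylase promoter drives human MYCN in cells of the neural crest, and all tumors carry the transgene. The labels put every tumor in 1 group and give no sex, age, slide or scan date per tumor, so the values describe levels and spread among tumors and no treated or normal tissue was compared. Each tumor is called by its label, from mad548 to mad565.

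Mismatch repair corrects bases that were wrongly paired during replication. Nucleotide excision repair removes bulky lesions such as ultraviolet photoproducts, while base excision repair removes small damaged bases and hands the resulting nick to single-strand break repair. Non-homologous end joining ligates double-strand breaks without a template and so works through the whole cell cycle, and direct reversal takes an alkyl group off a base without cutting the strand.

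The tumors carried the transcripts of the sympathoadrenal lineage. Th, the enzyme that starts catecholamine synthesis, averaged 13.09 ± 0.73 on the log2 scale (SD, n = 17). Of 22 sympathoadrenal genes measured, 17 lay in the top quartile of the array in all tumors, among them Th, Dbh, Hand2, Gata3 and Chga. Of the 5 that did not, the transporters Slc6a2 and Slc18a1 ranked at 48.8% and 54.7% and were in the top quartile in none. Of 8 adrenal cortex genes, 0 lay in the top quartile in all tumors. Their means ran from 4.35 (Cyp11b2) to 6.70 (Cyp21a1, ranked at 49.3%). Among other cell types, 10 skeletal muscle genes had a mean of 12.17 in mad553, while mad550 had 10.73 and mad549 had 9.90. The remaining 14 tumors had 5.74 to 6.86. A list of liver genes reached 9.88 in mad562, which also had the lowest median correlation with the other arrays (r = 0.978, against 0.984 or more). The same tumor had the highest means of the macrophage (11.03), B cell (6.87), T and NK cell (5.65) and endothelial (7.58) lists. In all tumors, 6 of 12 macrophage genes and 3 of 8 fibroblast genes lay in the top quartile. The mean of the fat list was highest in mad548, at 9.045. These are bulk samples, in which fewer cells of a type and less RNA per cell cannot be told apart.

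Promoter sequences were taken from RefSeq (build GRCm38.p6) as windows of 300 bases, from 250 before to 50 after each start, and 33 of the 38 genes matched a total of 37 windows. Letters known as sites of E2F factors, which act on S phase genes, were searched as TTTCCCGC, TTTGGCGC, TTTCGCGC and TTTGCCGC on both strands. They were found in 4 of the 37 windows (10.8%), against 744 of all 32851 windows (2.3%). The 4 windows are shown because the genes they belong to include Msh6 and Xrcc6, whose levels are set against S phase genes further on. Capitals mark the E2F letters, and in Msh3 the capitals hold 2 overlapping matches on opposite strands. The match starts at base 266 of the window in Msh6, 205 in Xrcc6, 49 in Msh3 and 119 in Nthl1.
Msh6 promoter, chr17:87974800-87975099, plus strand: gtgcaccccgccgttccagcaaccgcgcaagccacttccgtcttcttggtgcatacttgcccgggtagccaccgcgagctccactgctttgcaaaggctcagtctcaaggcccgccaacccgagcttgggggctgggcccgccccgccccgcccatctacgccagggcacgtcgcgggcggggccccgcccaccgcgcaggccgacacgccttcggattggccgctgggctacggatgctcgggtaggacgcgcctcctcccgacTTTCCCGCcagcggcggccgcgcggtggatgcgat
Xrcc6 promoter, chr15:82016119-82016418, plus strand: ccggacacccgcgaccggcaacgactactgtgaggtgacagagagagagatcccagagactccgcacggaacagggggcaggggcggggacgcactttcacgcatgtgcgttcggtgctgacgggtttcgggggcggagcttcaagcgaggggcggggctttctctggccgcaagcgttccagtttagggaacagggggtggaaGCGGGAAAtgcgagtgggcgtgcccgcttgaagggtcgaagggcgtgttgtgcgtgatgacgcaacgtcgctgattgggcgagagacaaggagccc
Msh3 promoter, chr13:92354954-92355253, minus strand: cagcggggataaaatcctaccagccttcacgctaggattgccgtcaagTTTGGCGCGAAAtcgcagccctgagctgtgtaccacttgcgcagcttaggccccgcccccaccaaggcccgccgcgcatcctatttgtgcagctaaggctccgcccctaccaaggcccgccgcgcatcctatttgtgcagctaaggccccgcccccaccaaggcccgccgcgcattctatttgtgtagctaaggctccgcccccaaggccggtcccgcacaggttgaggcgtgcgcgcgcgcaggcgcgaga
Nthl1 promoter, chr17:24632432-24632731, plus strand: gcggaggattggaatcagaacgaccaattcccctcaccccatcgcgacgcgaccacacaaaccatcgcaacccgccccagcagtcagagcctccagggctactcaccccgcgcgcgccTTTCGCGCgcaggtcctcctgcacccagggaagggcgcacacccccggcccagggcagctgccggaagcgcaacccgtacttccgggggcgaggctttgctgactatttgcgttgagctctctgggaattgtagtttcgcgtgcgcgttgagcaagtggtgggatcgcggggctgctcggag

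The E-box CACGTG, the letters bound by MYC family proteins, was present in 8 of the 37 windows (21.6%), against 7.2% of all windows. These were the windows of Apex1, Ercc6, Ercc8, Lig3, Parp1, Parp2, Tdg and Xrcc5. The GC box GGGCGG, searched on both strands like the others, was present in 67.6% of the repair gene windows, against 35.7% of all windows. CCAAT was found in 56.8%, against 37.4%, and TATAAA in 2.7%, against 13.6%. The windows were not matched on base composition, and a match in letters is not a measured binding site.

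Levels are given as ranks within the array. The brightness of a probe set also depends on how well its oligonucleotides hybridize, and a rank keeps that dependence, so the order of ranks between genes is not an order of transcript amounts. Within each array the single-gene probe sets were ordered and split into quartiles. Of the 36 measured repair genes, 13 (36.1%) lay in the top quartile in all 17 tumors, against 28.2% of all genes. Another 5 were in the top quartile in some tumors and 18 in none. None of the 36 lay below the array median in all tumors, against 35.9% of all genes, and none fell into the bottom quartile in any tumor, against 26.5%. The median of the mean ranks was 69.9% for the repair genes and 58.9% for all genes. These counts describe the list and were not tested.

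The same count was taken by pathway, and no difference between pathways was tested. It is to be read against 28.2% of all genes and 48.9% of genes at or above the array median. Base excision and single-strand break repair had 8 of 13 genes in the top quartile in all tumors, nucleotide excision repair 3 of 11, mismatch repair 1 of 5, end joining 1 of 6 and direct reversal 0 of 1. A further 47 genes of the same pathways, listed separately, included 43 with a value. Of these, all 9 of mismatch repair (the excision nuclease, clamp loader, polymerase and ligase genes) lay in the top quartile in all tumors, and so did 10 of 14 in nucleotide excision, 3 of 8 in base excision, 3 of 10 in end joining and 1 of 2 in direct reversal.

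**Figure D1:**
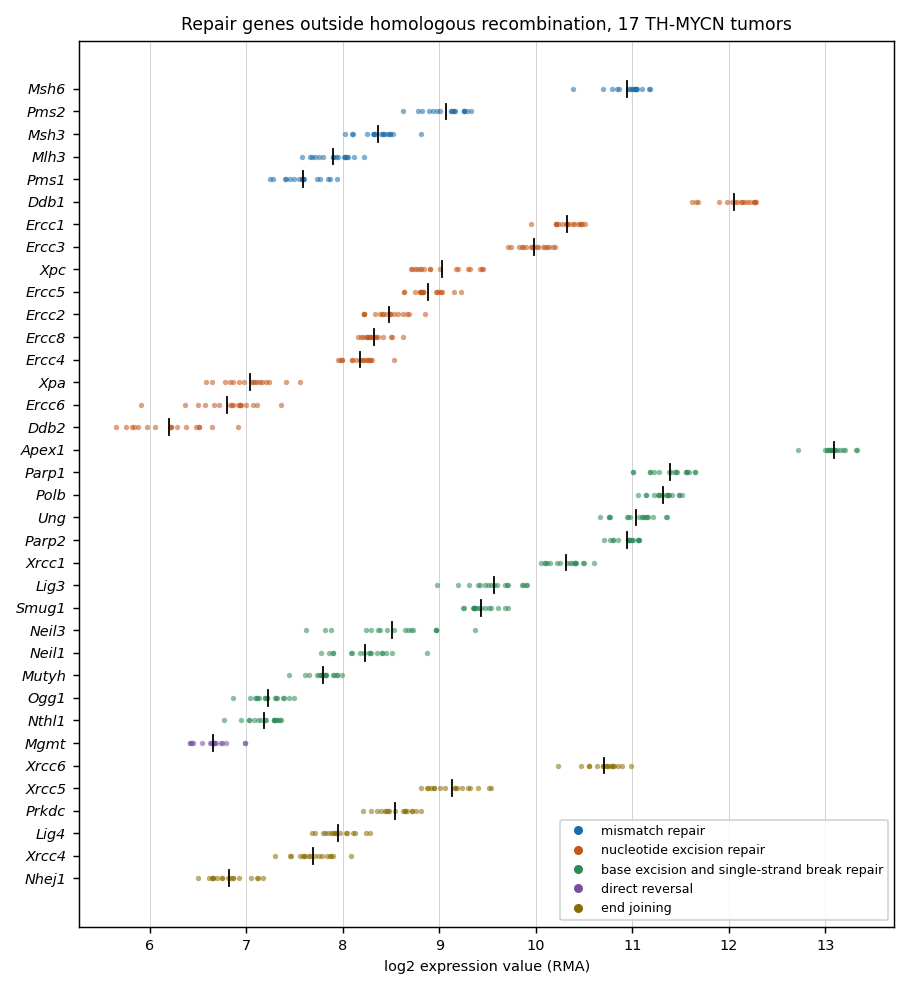
Log2 expression values (x axis) of the 36 measured repair genes (rows, grouped and colored by pathway), with 1 point per tumor (n = 17) and a vertical bar at the mean. Means run from 6.20 (Ddb2) to 13.09 (Apex1), and levels of different genes come from different probe sets. The points of Neil3, Ddb2 and Ercc6 are spread most widely.

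Among the mismatch repair genes, Msh6 was in the top quartile in all tumors, Pms2 in some and the other 3 in none. Msh6, which pairs with the common MutS subunit to recognise single mismatches, had values of 10.38 (mad553), 11.01 (median) and 11.18 (mad558), a mean rank of 92.3%. Mad553 lay apart at the low end, since the next tumor, mad550, was at 10.69. Msh3, the alternative partner that recognises longer loops, had values of 8.02 (mad562), 8.40 and 8.81 (mad565) and was in the top quartile in none of the tumors, at a mean rank of 68.1% for the brightest of its 4 probe sets. The MutL subunit Pms2 had a median of 9.12 and was in the top quartile in 12 tumors. Mlh3 and Pms1, the other MutL subunits, had medians of 7.93 and 7.58 and ranked at 63.0% and 59.4%, below the top quartile in every tumor.

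In nucleotide excision repair, the ultraviolet damage sensor has the subunits DDB1 and DDB2. Ddb1, which also serves as the adaptor of CUL4 ubiquitin ligases, had values of 11.62 (mad548), 12.12 and 12.28 (mad564), a mean rank of 97.0%. Ddb2, the subunit that binds the lesion, had values of 5.65 (mad550), 6.22 and 6.91 (mad555), the lowest mean rank of the 36 genes at 43.1%. It lay below the array median in 16 of 17 tumors. Its SD of 0.349 was second among the 36 genes, and its highest tumor was 2.38 times its lowest. A second Ddb2 probe set ranked at 39.9% and followed the first with r = 0.539 over the 17 tumors.

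The damage recognition and incision genes covered a broad range of ranks. Xpc, which recognises helix distortion across the genome, had values of 8.71 (mad564), 8.91 and 9.46 (mad549) and an SD of 0.275. It was in the top quartile in 8 tumors. Ercc1, a subunit of the nuclease that cuts 5′ of the lesion, had values of 9.95 (mad551), 10.32 and 10.52 (mad549), a rank of 88.0% that held in the top quartile in all tumors. Ercc4, its catalytic partner, had values of 7.95 (mad565), 8.20 and 8.53 (mad554) and ranked at 66.0%. The 3′ nuclease gene Ercc5 had values of 8.63 (mad551), 8.83 and 9.22 (mad563), with 6 tumors in the top quartile.

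The TFIIH helicase genes were Ercc3, at a median of 9.98 and a rank of 85.0%, and Ercc2, with values of 8.22 (mad558), 8.49 and 8.85 (mad548) and a rank of 69.4%. Ercc3 lay in the top quartile in all tumors. Xpa, the scaffold at the opened lesion, had a median of 7.07 and ranged from 6.58 (mad550) to 7.57 (mad563). In the transcription-coupled branch, Ercc6, the CSB translocase at stalled RNA polymerase, had values of 5.91 (mad565), 6.86 and 7.36 (mad559). Its SD of 0.331 came next after that of Ddb2, and mad565 lay below the next tumor, mad563, at 6.36. Ercc8, the CSA ubiquitin ligase subunit of the same branch, had values of 8.16 (mad556), 8.29 and 8.62 (mad565) and an SD of 0.123, among the 3 smallest.

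The core of base excision repair was measured through an endonuclease, a polymerase and uracil glycosylases. Apex1, the endonuclease that cuts at abasic sites, had values of 12.72 (mad553), 13.08 and 13.33 (mad548), a mean rank of 99.0%. Its 3 probe sets ranked within a point of each other, and the other 2 followed the first with r of 0.808 and 0.861. Polb, the gap-filling polymerase, had values of 11.06 (mad551), 11.35 and 11.51 (mad549), with an SD of 0.125. Its other probe sets had SDs of 0.152, 0.226 and 0.421, and r of -0.095, -0.099 and 0.427 with the one used. Ung, the uracil glycosylase, had values of 10.66 (mad559), 11.10 and 11.36 (mad548), at a rank of 92.8%. Smug1, a second uracil glycosylase, had a median of 9.39 and a rank of 79.7%, and stayed in the top quartile in all tumors.

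Among the glycosylases for oxidised bases, Ogg1, which removes 8-oxoguanine, had a median of 7.21 and a rank of 55.4%. Mutyh, which removes adenine paired with 8-oxoguanine, had values of 7.44 (mad553), 7.81 and 7.99 (mad549), and Nthl1, which removes oxidised pyrimidines, ranked at 54.9%. Neil1, a glycosylase of the same substrates, had values of 7.77 (mad553), 8.27 and 8.87 (mad554), with an SD of 0.278. None of these 4 genes was in the top quartile in any tumor.

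Neil3, a glycosylase that also acts on single-stranded DNA and on crosslinks, varied most of the 36 genes. Its values were 7.62 (mad565), 8.53 and 9.37 (mad558), a 3.37-fold range, and its SD of 0.458 exceeded that of 91.7% of all genes. The 3 lowest tumors were mad565, mad562 at 7.81 and mad561 at 7.88. The spread was not shared by its second probe set, which had a similar rank (67.0%, against 69.7%) but an SD of 0.220 and an r of 0.372 with the first.

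The probe sets used for the single-strand break genes Parp1, Parp2, Xrcc1 and Lig3 lay in the top quartile in all tumors, with unequal spread. Parp1, which senses breaks and makes poly(ADP-ribose), had values of 11.01 (mad549), 11.44 and 11.65 (mad559), a rank of 94.5%. Parp2, its relative, had values of 10.71 (mad553), 10.96 and 11.07 (mad549), and its SD of 0.114 was the smallest of the list. Xrcc1, the scaffold recruited to sites of poly(ADP-ribose), had values of 10.05 (mad554), 10.35 and 10.60 (mad549). Lig3, the ligase that binds Xrcc1, had values of 8.98 (mad565), 9.57 and 9.91 (mad554), with an SD of 0.258. The SDs of Lig3 and Parp1 (0.207) were above the median of all genes (0.193), and those of Xrcc1 (0.166) and Parp2 below it.

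Mgmt, the methyltransferase that removes alkyl groups from guanine and the only gene of direct reversal in the list, had values of 6.42 (mad558), 6.67 and 6.99 (mad564). Its mean rank was 48.8%, and it lay below the array median in 13 of 17 tumors. It was represented by 1 probe set, so a low rank and a poorly hybridizing probe set cannot be told apart.

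In end joining, Xrcc6 encodes Ku70, a subunit of the ring that caps broken ends. Xrcc6 had values of 10.23 (mad553), 10.74 and 10.99 (mad549), a rank of 90.7%. Xrcc5, which encodes its Ku80 partner, had a median of 9.16 and was in the top quartile in 10 tumors. Prkdc, the kinase that Ku recruits, had a median of 8.54 and a rank of 70.1%. Of the ligation genes, Lig4, the ligase, ranked at 63.5%, Xrcc4, its scaffold, at 60.6%, and Nhej1, the XLF bridging factor, at 50.8%. Nhej1 lay below the array median in 9 of 17 tumors.

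For many of the genes with several probe sets, the rank depended on which one was read. Probe sets of Lig3, Ercc1, Xrcc6 and Ercc5 lay more than 2 quartiles apart within the array. The 5 Lig3 probe sets ranked from 19.7% to 81.0%, and the one next below the top, at 68.0%, had an r of -0.021 with it. Ercc1 had 4 probe sets, from 21.5% to 88.0%, of which the second brightest ranked at 82.9% and had an r of 0.761. The pair of Xrcc6 probe sets ranked at 90.7% and 24.5%, and the pair of Ercc5 at 73.9% and 8.8%. Probe sets of Msh3 (4.5% to 68.1%), Ercc4 (14.9% to 66.0%) and Ercc8 (9.4% to 67.7%) lay 2 quartiles apart. Those of Xpa ranked from 6.5% to 53.3%. In all, 18 genes had several probe sets, 7 of them within 1 quartile, and the 36 added probe sets followed the one used with a median r of 0.26, from -0.303 (Xpa) to 0.861 (Apex1). For Parp1 the other 3 probe sets had r of -0.037, 0.134 and -0.110, so its differences between tumors were not shared among its probe sets.

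**Figure D2:**
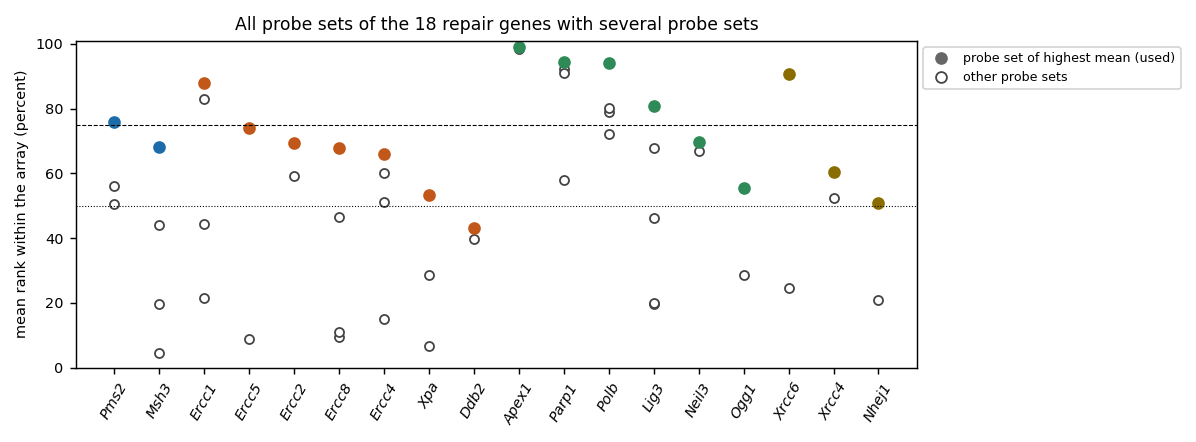
Mean rank within the array over 17 tumors (y axis, percent) of every probe set of the 18 repair genes that have several (x axis); filled points, colored by pathway as in the plot of levels, are the probe sets used and open points the others. The dashed line marks the top quartile limit (75) and the dotted line the median (50). Apex1 probe sets coincide near 99, while those of Lig3 run from 19.7 to 81.0.

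The spread between tumors was close to that of all genes. None of the 36 had an SD of at least 0.5 over tumors, against 6.79% of all genes. Their median SD was 0.178, from 0.114 to 0.458, against 0.193 for all genes and 0.204 for the genes at or above the array median, and 16 of the 36 lay above the median SD of all genes. The mean of the 36 genes ran from 8.81 (mad553) to 9.11 (mad548), with an SD of 0.077. Leaving out mad549, mad550 and mad553, Neil3 had an SD of 0.50 and reached the limit. Without these tumors SDs moved in both directions. Those of Msh6 (0.194 to 0.114), Xrcc6 (0.178 to 0.124), Apex1 (0.136 to 0.088) and Mutyh (0.135 to 0.098) fell. Besides that of Neil3, those of Lig3 (0.258 to 0.274) and Ddb1 (0.218 to 0.23) were among the SDs that rose.

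Some tumors were low or high for many of the genes at once. Mad553 was the lowest tumor for 9 of the 36 genes, against 12.9% of all genes, and mad549 was the highest for 8 (22.2%), against 7.02%. Above its median over tumors were 28 of the 36 genes in mad548 and 28 in mad549 (77.8% each), against 66.4% and 60.3% of all genes. The opposite held for mad551, with 5 genes above (13.9%, against 34.6%), and for mad553, with 7 (19.4%, against 33.7%). The median deviation of the repair genes was -0.134 in mad553 and 0.147 in mad548, against -0.053 and 0.09 for all genes. Mad553 and mad549 are among the 3 tumors with high muscle transcripts, and the part of muscle RNA in these deviations was not tested.

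**Figure D3:**
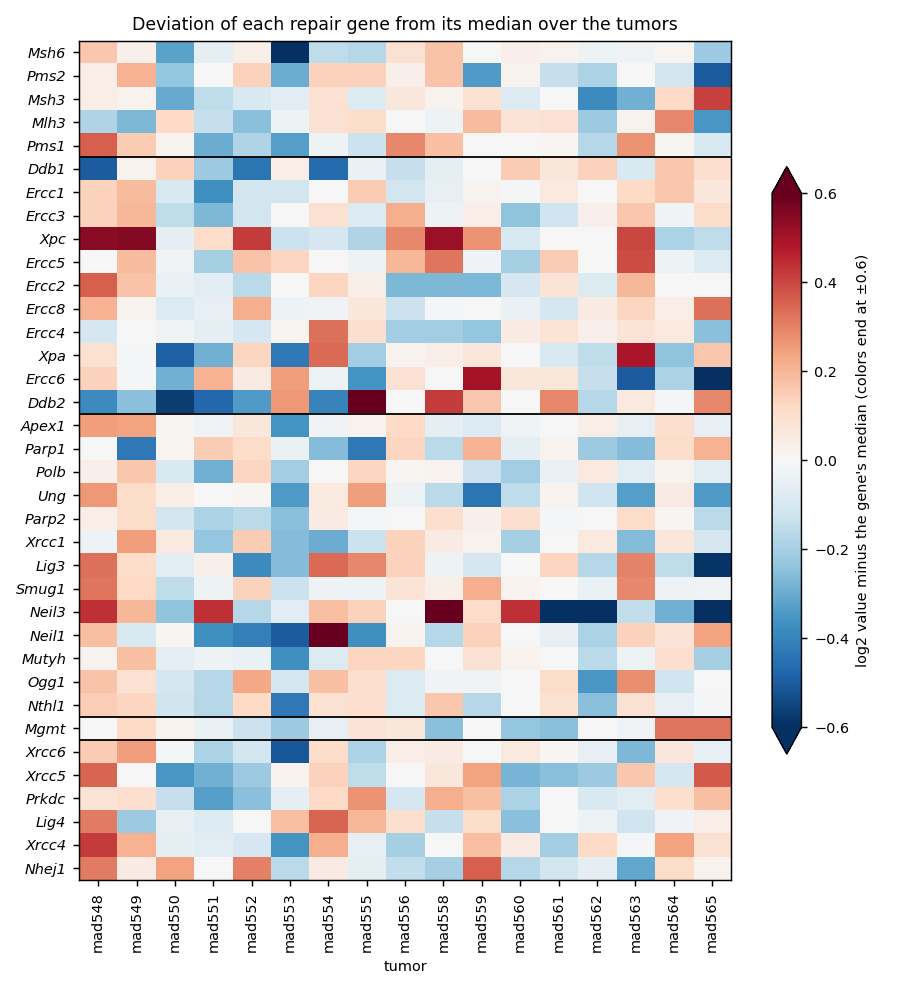
Log2 value minus the gene's median over the tumors (color, ending at ±0.6) for 36 repair genes (rows, with black lines between pathways) in 17 tumors (columns). Mad553 is the lowest tumor for 9 genes, and the Neil3, Ddb2 and Ercc6 rows hold the deepest colors.

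Several repair genes are known to be made at DNA replication, so each gene was set against the mean of 23 S phase genes, none of them in the repair list. That mean ran from 11.14 (mad553) through a median of 11.46 to 11.64 (mad558). The slope of each gene on it was tested in limma over 18170 genes (two-sided, Benjamini-Hochberg adjusted p under 0.05). None of the 36 repair genes passed, against 6 genes in all (0.033%). At an unadjusted p under 0.05 there were 8 repair genes with an upward slope and 0 with a downward slope, against 7.16% and 2.72% of all genes. Slopes were above 0 for 30 of the 36, with a median of 0.40, against 55.3% and a median of 0.06 for all genes. The separate list of 43 repair genes had 0 that passed and 38 slopes above 0, with a median of 0.36.

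The 3 genes of lowest p, singled out after their values were seen, were Xrcc6, Msh6 and Mutyh. For Xrcc6 the slope was 1.05 ± 0.26 (SE, adjusted p = 0.127), with r = 0.758 (permutation p = 0.00054) and rho = 0.618 (permutation p = 0.00915). For Msh6 it was 1.11 ± 0.28 (adjusted p = 0.142), with r = 0.730 (permutation p = 0.00159) and rho = 0.608 (permutation p = 0.0113). For Mutyh it was 0.76 ± 0.23 (adjusted p = 0.215), with r = 0.720 (permutation p = 0.00131) and rho = 0.696 (permutation p = 0.00245). All 3 had their lowest value in mad553, the tumor of lowest S phase mean. Without mad553 and mad558, the tumors farthest from the median of that mean, r was 0.598 for Xrcc6, 0.399 for Msh6 and 0.590 for Mutyh. Without mad553 alone the slopes were 0.76 for Xrcc6 (adjusted p = 0.674), 0.64 for Msh6 (0.704) and 0.52 for Mutyh (0.719). Without the 3 tumors of high muscle transcripts they were 0.66, 0.53 and 0.43 (adjusted p of 0.827, 0.830 and 0.846). With the mean of its probe sets Xrcc6 had a slope of 0.48 (adjusted p = 0.519). Its other probe set ranked at 24.5% and had an r of 0.046 with the one used. Averaging in such a dim probe set shrinks a slope by itself, so this drop cannot show whether the relation holds. Correlations were computed for 36 genes against 4 lists, and each tumor contributes all of its genes from 1 array.

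**Figure D4:**
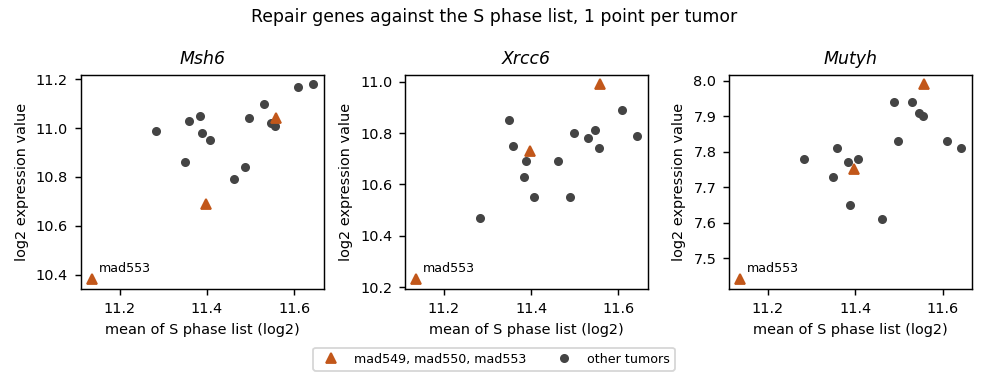
Log2 expression value of Msh6, Xrcc6 and Mutyh (y axes) against the mean log2 value of 23 S phase genes (x axes), with 1 point per tumor (n = 17) and triangles for the 3 tumors with high muscle transcripts. Mad553 lies at the lower left in each panel, at an S phase mean of 11.14.

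With every array first centred on its median (deposited array medians ran from 6.28 to 6.51), 272 genes passed (1.5%), and Msh6 (adjusted p = 0.0353), Xrcc6 (0.044) and Mutyh (0.0487) were among them. Without mad553, centred arrays gave 0 of the 36 (lowest adjusted p = 0.171), with slopes of 0.79 for Msh6, 0.70 for Xrcc6 and 0.63 for Mutyh, against 1.07, 0.91 and 0.76 with all tumors. Without all 3 tumors of high muscle transcripts, centred arrays gave 0 as well (lowest adjusted p = 0.213). Mutyh had no E2F letters in its window. The other genes with E2F letters, Nthl1 and Msh3, had smaller slopes than Msh6 and Xrcc6 on the values as deposited. Whether slopes differ with these letters was not tested. Nthl1 had a slope of 0.63 ± 0.30 (adjusted p = 0.505) and an r of 0.494 (permutation p = 0.0443) with rho = 0.382 (permutation p = 0.129), and r was 0.014 without mad553 and mad558. Msh3 had a slope of 0.57 ± 0.35 (adjusted p = 0.644). Ung and Neil3, both known to be made in dividing cells, did not pass either, at adjusted p of 0.761 for Ung and 0.555 for Neil3.

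Against the mean of 21 genes of G2 and mitosis, 1 of the 36 genes passed, beside 194 of 18172 genes (1.07%). At an unadjusted p under 0.05 there were 11 upward and 1 downward, against 8.39% and 4.45% of all genes. The gene that passed was Msh6, with a slope of 1.14 ± 0.23 (adjusted p = 0.0265), r = 0.814 (permutation p = 0.00033), rho = 0.674 (permutation p = 0.00391) and r = 0.595 without mad553 and mad554. Without mad553 none of the 36 passed (lowest adjusted p = 0.224). Xpc came next, with a slope of 1.28 ± 0.38 (adjusted p = 0.113), r = 0.648 (permutation p = 0.00367) and rho = 0.647 (permutation p = 0.00607), and its r was 0.659 without the same 2 tumors. Of the 43 other repair genes 3 passed, named after their values were seen: the clamp loader subunits Rfc3 (adjusted p = 0.0169) and Rfc5 (0.0445), and Aplf, an end joining factor (0.0296).

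Some repair genes are known targets of p53, among them Ddb2 and Xpc in human cells. Against the mean of 16 other p53 targets, none of the 36 passed, beside 215 of 18177 genes (1.18%). That mean ran from 7.76 (mad558) to 8.46 (mad562, the tumor of highest liver and macrophage transcripts). Of the 16 targets, 4 lay in the top quartile in all tumors. At an unadjusted p under 0.05 there were 0 genes with an upward slope, against 11.9% of all genes, and 1 with a downward slope, against 1.85%. This gene was Neil3, with a slope of -1.40 ± 0.58 (adjusted p = 0.276), r = -0.498 (permutation p = 0.0428) and rho = -0.375 (permutation p = 0.139), and r was -0.106 without mad558 and mad562. Its slope was -2.26 with centred arrays (adjusted p = 0.0701), -0.88 with the mean of its probe sets and -0.81 with the first principal component as covariate. Ercc2 and Ercc4 followed, with slopes of 0.51 ± 0.25 (adjusted p = 0.383) and 0.45 ± 0.22 (adjusted p = 0.384). For Ercc2 rho was 0.554 (permutation p = 0.0237), and for Ercc4 0.561 (permutation p = 0.0202). With mad558 and mad562 left out, r was 0.647 for Ercc2 and 0.490 for Ercc4. Without mad562 their slopes were 1.01 (adjusted p = 0.120) and 0.68 (adjusted p = 0.237), and with centred arrays 0.23 and 0.18. With the first principal component as covariate that of Ercc2 was 0.79 (adjusted p = 0.164). Ddb2 had a slope of -0.22 ± 0.51 (adjusted p = 0.910) and Xpc of -0.55 ± 0.39 (adjusted p = 0.611). Named after its values were seen, Ercc8 had a rho of 0.586 (permutation p = 0.0146, adjusted p of the slope 0.494). In the other direction, Ercc6 had a rho of -0.542 (permutation p = 0.0267, adjusted p of the slope 0.477).

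The tumors also differed in sympathoadrenal transcripts, whose mean over 22 genes ran from 10.86 to 11.45. None of the 36 repair genes passed against this mean, beside 123 of 18171 genes (0.677%), and 2 had an unadjusted p under 0.05, 1 upward and 1 downward, against 11.4% and 2.48% of all genes. Ercc4 had a slope of 0.54 ± 0.17 (adjusted p = 0.147), r = 0.685 (permutation p = 0.00215) and rho = 0.684 (permutation p = 0.0032), with r = 0.594 without mad554 and mad560. Xrcc1 had a slope of -0.55 ± 0.19 (adjusted p = 0.196), r = -0.625 (permutation p = 0.00844) and rho = -0.593 (permutation p = 0.0137), with r = -0.486 without those tumors. Ercc2 had a slope of 0.43 ± 0.21 (adjusted p = 0.384), which was 0.23 with centred arrays.

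Products of several of these genes work as subunits of a complex or at the same step, and 12 such pairs were listed, of which 11 were measured on both sides. The slope of every other gene on the first gene of the pair was fitted over 18192 genes. None of the 11 partners passed, against at most 0.104% of genes in any of these fits (19 genes, on Xrcc5). The fit on Msh3 called 0.0055% and the other fits 0. The Ku genes Xrcc5 and Xrcc6 had r = 0.114 (permutation p = 0.668) and rho = 0.154 (permutation p = 0.552, adjusted p of the slope 0.921). The highest r was that of Xrcc4 and Nhej1 at 0.479 (permutation p = 0.0519), with rho = 0.463 (permutation p = 0.0632) and an adjusted p of 0.472, and it was 0.284 without mad548 and mad553.

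The pairs of lowest r had negative values. Ercc6 and Ercc8 had r = -0.542 (permutation p = 0.0263), rho = -0.439 (permutation p = 0.079) and an adjusted p of 1.0. The value rested on the tumors at the low end of Ercc6, since r was -0.060 without mad563 and mad565. Parp1 and Parp2 had r = -0.509 (permutation p = 0.0367), rho = -0.517 (permutation p = 0.0356) and an adjusted p of 0.388, and r was -0.500 without mad549 and mad555. The slope of this pair was -0.28 with the probe sets of highest mean and 0.21 with the mean of all probe sets, so its direction depended on the probe sets of Parp1. Ddb1 and Ddb2 had r = 0.401 (permutation p = 0.112) and rho = 0.211 (permutation p = 0.417, adjusted p of the slope 0.665). The other 6 pairs had r from -0.221 (Xrcc1 and Lig3) to 0.335 (Pms1 and Pms2).

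**Figure D5:**
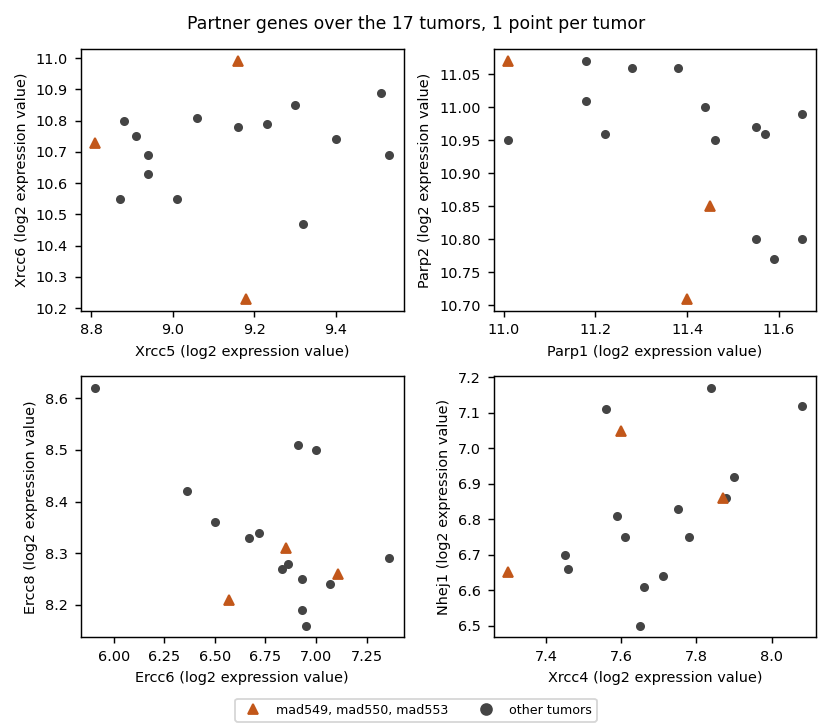
Log2 expression values of 4 partner pairs (the first gene on the x axis, the second on the y axis), with 1 point per tumor (n = 17) and triangles for the 3 tumors with high muscle transcripts. The r values are 0.114 for Xrcc5 and Xrcc6, -0.509 for Parp1 and Parp2, -0.542 for Ercc6 and Ercc8 and 0.479 for Xrcc4 and Nhej1.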

How the data were processed

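Total RNA of each tumor was processed in a 2-cycle target assay, and the biotin-labelled cRNA was hybridized to 1 Affymetrix whole-genome mouse array. The deposited values are log2 expression values per probe set, made by the authors with RMA (the submitters' processing notes name RMA and Partek 6.4). The methods of the study name another summary method, MAS5, and the deposited values are on a log2 scale from 3.28 to 15.59. They were used without further scaling. Array medians still ran from 6.28 to 6.51 after RMA. No read depth applies, and the number of tumors limits the precision. The p-values are for slopes and correlations, judged against the variation between these tumors, and the SDs were not tested.

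Of 45101 probe sets, 64 are controls, 34945 carried 1 gene symbol, 932 several and 9160 none in the platform annotation. The probe set of highest mean stood for each gene. Slopes on list means were fitted with limma 3.58.1 (R 4.3.3; lmFit and eBayes), and adjusted over all genes outside the list. Correlations used 100000 permutations (SciPy 1.17.1, NumPy 2.4.6, pandas 2.3.3). The fits were run on simulated data with known slopes, larger than those of the repair genes in the S phase fit. Genes were simulated independently of each other. The simulation therefore does not show whether slopes of the size found here would be detected.

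The 38 genes and all lists were chosen with earlier results of these data known. Values in full were given for the 3 genes of highest and lowest rank, the 6 of largest and 3 of smallest SD, genes called in the S phase fit (there were 0), the 3 of lowest p in the p53 and sympathoadrenal fits, and genes with probe sets over 2 quartiles apart. Other genes given in full were named after their values were seen.

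Alternatives were the mean of all probe sets, probe sets without the types that can match other sequences, centred arrays, a filter on dim genes, other limits and another measure of spread, covariates (3′ to 5′ control difference, muscle list, first principal component), the list of G2 and mitosis, and tumors left out.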

Additional observations from a re-analysis of the deposited data

How the results depend on the processing

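The count of repair genes in the top quartile in all tumors (13) ran from 10 with the mean of all probe sets to 17 with limits from all probe sets. The count with an SD of at least 0.5 was 1 (Neil3) without mad549, mad550 and mad553, and 0 under the other 5 alternatives. The count of genes related to the S phase list was 3 with centred arrays (slopes of 0.914 for Xrcc6, 1.07 for Msh6 and 0.759 for Mutyh) and 1 with the list of G2 and mitosis in its place, and 0 under the other 11 alternatives, 3 of them added later. Of these, leaving out mad553 from either setting, an alternative chosen after seeing the data, gave 0, and so did leaving out mad549, mad550 and mad553 with centred arrays. The counts for the p53 targets, the sympathoadrenal list and the partner pairs were 0 under all 9 alternatives each, and all 4 counts were 0 with each of the 17 tumors left out in turn.

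Directions turned among pairs that did not pass the test. With centred arrays the slope was -0.059 for Xrcc4 and Lig4 and -0.081 for Ercc1 and Ercc4, which was also -0.205 without probe sets that can match other sequences and 1.05 with the mean of all probe sets (adjusted p = 0.173), against 0.232 with the probe sets of highest mean. The slope of Parp1 and Parp2 was 0.207 with the mean of all probe sets. That of Msh3 and Msh6 was -0.119 without mad549, mad550 and mad553 and -0.049 with the muscle list as covariate. With 1 tumor left out, slopes ran from -0.003 to 0.153 for Xrcc5 and Xrcc6, from -0.121 to 0.299 for Xrcc4 and Lig4, and from -0.042 to 0.372 for Msh3 and Msh6. The cause was not tested. Ddb1 and Ddb2 gave no value with the filter on dim genes, which removes Ddb2.

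No paired analysis was possible because the tumors form 1 group, with a single array each, and share no replicate numbers with another condition. Levels of dim genes such as Ddb2 and Mgmt are limited by signal over background, and RMA values carry no detection call.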
